A study of Mus musculus with 3 samples.

Results

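Serine synthesis, the folate and methionine cycles, amino acid supply and the amino acid stress response were followed through 37 named genes in stimulated mouse CD4+ T cells. The genes were a list of known pathway members, chosen with earlier results of these data known. They were the enzymes of serine, one-carbon and amino acid metabolism, the amino acid carriers, and the transcription factors and targets of the stress response run by ATF4. Of the 37, 36 had a probe on the array and 34 gave a signal well above background, out of 20886 genes named on the array and 13161 measured on at least 1 array. Pycr1, an enzyme of proline synthesis, had no probe that could be named. Cth, which makes cysteine from cystathionine, and Slc7a11, the cystine carrier, were not well above background on any array.

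Total RNA was compared from CD4+ T cells of female C57BL/6 mice aged 8 weeks, 2 days after stimulation, in 3 genotypes. One group was Dll1-/- (here Dll1 KO), lacking Delta-like 1, a ligand of Notch receptors. Another was Rbpj-/- (here Rbpj KO), lacking the DNA-binding protein through which Notch signals reach their target genes. The third was wild type (WT). Each genotype was represented by a single 1-colour Agilent array, so no difference below has a replicate check, no p-value is given, and differences between genotypes cannot be told apart from differences between 3 RNA preparations. The labels and headers do not state how many animals gave each RNA, which cells carried each deletion, how the cells were purified or what stimulated them.

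As background, Phgdh, Psat1 and Psph convert a glycolytic intermediate to serine, and the Shmt enzymes pass a carbon of serine to folate. The folate enzymes of the Mthfd family carry that carbon towards purines, thymidylate and, through the methionine cycle, methyl groups. T cells that have been activated take up amino acids and run this pathway hard as they enter division. When amino acids are short, the kinase GCN2 slows translation while ATF4 protein is made, and ATF4 switches on the same synthesis enzymes and carriers together with regulators such as Ddit3, Atf3, Trib3 and Chac1.

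A level here is the log2 of a probe's processed signal minus the 75th percentile of its own array, averaged over the probes of a gene. It can be compared for 1 gene between arrays but not between genes. A difference of 1.5-fold is 0.58 on this scale and is used only as a size. The error given after ± is the one that the scanner software reports for the signals. It covers a single scan and not the spread between animals. Its median over the differences of the 34 genes was 0.2.

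In Rbpj KO cells most of the measured genes were lower than in WT, with a median log2 difference of -0.36 over the 34 genes against -0.07 over all 11578 genes measured on both arrays. Lower levels in Rbpj KO were seen for 28 of the 34 genes, beside 60.2% of all genes. By at least 1.5-fold, 4 genes were lower (Atf3, Cbs, Gpt2 and Ddit3), beside 6.91% of all genes, and 0 were higher, beside 4.86% of all genes. Past 2-fold there were 2, Atf3 and Cbs, beside 3.53% of all genes in either direction. The shift of the list was thus made of many differences under 1.5-fold, most of them between -0.2 and -0.6. Of the 34 differences, 14 were lower by more than 2 scanner errors, beside 13.8% of all genes, 0 were higher by that much, beside 7.97%, and 20 lay within it. The 6 genes with a mean level above WT in Rbpj KO were Psat1, Ahcy, Asns, Slc38a1, Ddit4 and Trib3. Of these, Psat1, Ahcy and Slc38a1 had probes on both sides of WT, and so did Mat2a, Slc7a5 and Slc1a5 among the 28 lower genes. With arrays scaled on E1A spike-in probes instead, all 6 were lower. The number lower of the 34 was 24 after normexp background correction with quantile normalization, where the median of all genes was 0.01. On probes well above background on both arrays it was 27, where the median of all genes was -0.07.

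Dll1 KO cells did not show that pattern. The median over the 34 genes was -0.03, and the median over all 11811 genes was also -0.03. A lower level in Dll1 KO than in WT was found for 18 of the 34, beside 55.7% of all genes. At 1.5-fold, 2 genes were lower (Cbs and Gpt2), beside 2.25% of all genes, and 0 were higher, beside 1.95%. Only Cbs among the 34 passed 2-fold, beside 1.12% of all genes in either direction. Beyond 2 scanner errors, 4 genes were higher, beside 4.05% of all genes, 2 were lower, beside 4.85%, and 28 were within.

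Set directly against each other, Rbpj KO was lower than Dll1 KO for 28 of the 34 genes, beside 55.1% of all 11794 genes measured on both. The median difference was -0.27, against -0.03 over all genes. By at least 1.5-fold, 5 genes were lower in Rbpj KO (Atf3, Slc1a4, Chac1, Slc7a1 and Aldh18a1), beside 6.34% of all genes, and 0 were higher, beside 5.24%. Past 2-fold there was Atf3 alone, beside 4.16% in either direction. Beyond 2 scanner errors, 11 were lower, beside 11.0% of all genes, and 0 were higher, beside 8.46%. The 3 comparisons share arrays pairwise, so their values are given side by side and not as separate evidence.

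**Figure D1:**
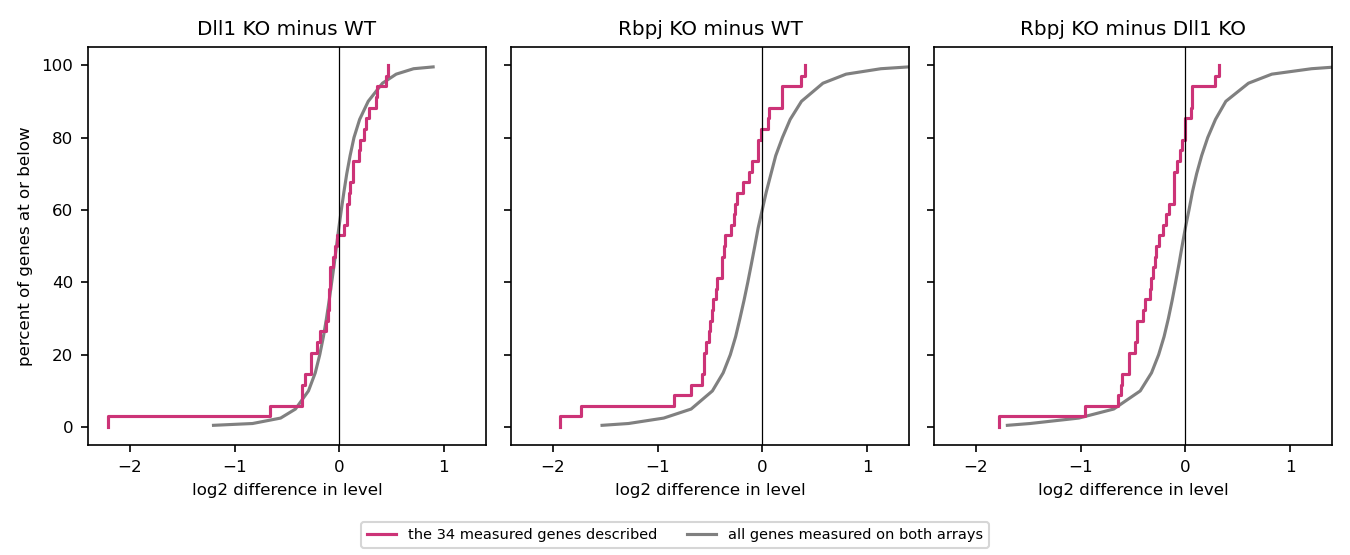
Percent of genes (vertical axis) whose log2 difference in level lies at or below the value on the horizontal axis, for the 34 measured genes described and for all genes measured on both arrays, 1 array per group. The 2 curves lie close together for Dll1 KO minus WT (medians -0.03 and -0.03), while the 34 genes lie to the left of all genes for Rbpj KO minus WT (medians -0.36 and -0.07).

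Among the genes of the ATF4 response, Atf3 differed most. Atf3, a stress-induced transcription factor, had a level of -0.18 in Dll1 KO cells and -1.96 in Rbpj KO cells, against -0.23 in WT cells. The processed signals of its probe were 136.9 in Dll1 KO and 36.28 in Rbpj KO, against 151.5 in WT. The Rbpj KO array stood alone at the low end, 3.33-fold below WT (log2 difference -1.73 ± 0.25) and 3.43-fold below Dll1 KO (-1.78 ± 0.25), while Dll1 KO and WT lay within the scanner error (0.05 ± 0.21). After normexp background correction with quantile normalization, which adds an offset and draws dim signals together, Atf3 was still the lower of the pair in Rbpj KO, by -0.92 against WT and -1.04 against Dll1 KO.

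Ddit3, which encodes CHOP, a factor that ATF4 induces in prolonged stress, had a level of 0.93 in Dll1 KO and 0.52 in Rbpj KO, against 1.2 in WT. WT was the highest and Rbpj KO the lowest array, with a log2 difference of -0.68 ± 0.21 in Rbpj KO and -0.27 in Dll1 KO. Atf5, a relative of ATF4, had levels of 2.88 in Dll1 KO and 2.4 in Rbpj KO, against 2.93 in WT. Again the Rbpj KO array was the low one, 1.45-fold below WT (log2 difference -0.54, and -0.34 after normexp). Chac1, an enzyme that degrades glutathione, had a dimmer probe, with levels of -1.61 in Dll1 KO, -2.24 in Rbpj KO and -1.74 in WT. Its difference in Rbpj KO was -0.50 ± 0.29 from WT and shrank to -0.08 after normexp.

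Atf4 itself differed little. Its level was 4.15 in Dll1 KO and 3.99 in Rbpj KO, against 4.23 in WT, a difference of -0.09 in Dll1 KO, where its probes disagreed in sign, and -0.24 in Rbpj KO. ATF4 is controlled largely at translation, and neither its protein nor its translation was measured here. Not every known ATF4 target was low in Rbpj KO. Ddit4, an inhibitor of mTORC1, had a level of 3.47 in Dll1 KO and 3.52 in Rbpj KO, against 3.12 in WT, higher in Rbpj KO by 0.41 ± 0.20 with the 75th percentile scaling but lower by -0.18 with the spike-in scaling. Trib3, a pseudokinase that restrains ATF4 signalling, was 0.06 above WT in Rbpj KO (-0.53 with the spike-in scaling) and differed by -0.27 in Dll1 KO. Sesn2, a leucine sensor that ATF4 induces, differed by -0.13 in both. Over the 8 genes of this group, 3 were higher and 5 lower in Dll1 KO (median -0.07, and 0.01 after normexp), beside 55.7% of all genes lower. In Rbpj KO 2 were higher and 6 lower, beside 60.2% of all genes lower, and the median of the 8 was -0.37. That Rbpj KO median became -0.08 after normexp.

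**Figure D2:**
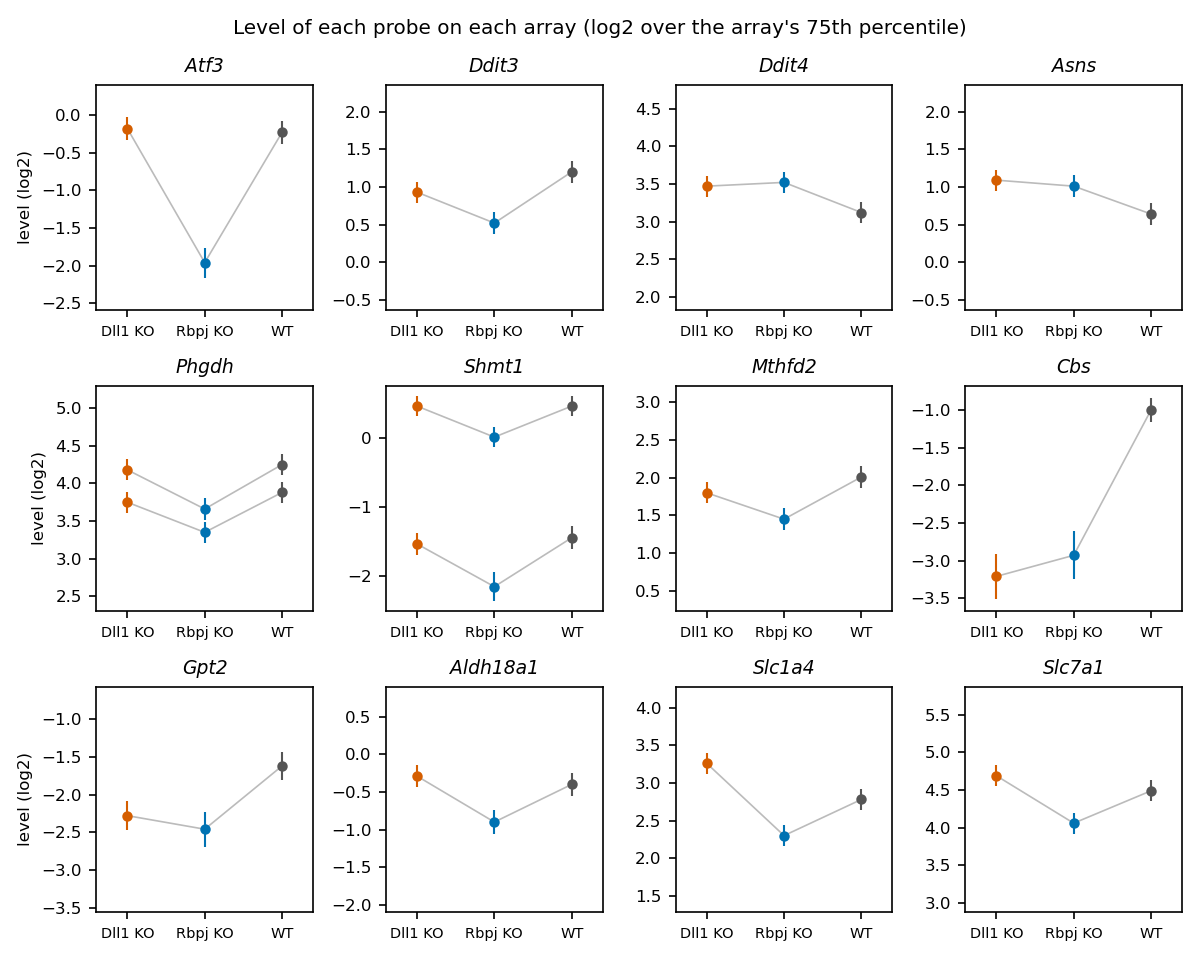
Level of every probe of 12 of the genes on the 3 arrays (log2 over the array's 75th percentile; lines join 1 probe's values and bars are the scanner software's error, 1 array per group). The Rbpj KO point is the lowest for Atf3 (-1.96), Ddit3, Slc1a4 and Slc7a1, while Cbs and Gpt2 are lower in both Dll1 KO and Rbpj KO than in WT.

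The promoters of these genes were read for the DNA element that ATF4 binds. The letters searched were TGATGNAA, the core of the amino acid response element on which ATF4 pairs with a C/EBP protein, on both strands of 300 bases per start site (250 before it and 50 from it on) from the RefSeq promoter table of build GRCm38.p6. The table held 36 windows for 32 of the 37 genes, and none for Cth, Slc1a5, Slc38a1, Slc7a3 and Slc7a5. The element was found in 8 of the 36 windows (22.2%), beside 1304 of 32851 windows of all genes (3.97%). Because the list included genes chosen as ATF4 targets, a higher share was built into that choice and is not a separate result. The 8 windows belonged to Asns, Atf3, Chac1, Got1, Pycr1, Slc1a4, Slc7a11 and Trib3. A match describes the letters only, since no binding was measured in these cells. 5 stretches of 100 bases are shown because their genes span the range of the differences found, with Atf3, Chac1 and Slc1a4 low on the Rbpj KO array against both others, Got1 lower by less, and Asns not lower. Each is written 5′ to 3′ along the gene's own strand, with the element in capitals, and a reverse-strand match reads TTNCATCA. In GRCm38.p6, the Atf3 stretch is at chr1:191183396-191183495 (minus strand), Chac1 at chr2:119350997-119351096 (plus), Slc1a4 at chr11:20332710-20332809 (minus), Got1 at chr19:43524660-43524759 (minus) and Asns at chr6:7693210-7693309 (minus).
Atf3: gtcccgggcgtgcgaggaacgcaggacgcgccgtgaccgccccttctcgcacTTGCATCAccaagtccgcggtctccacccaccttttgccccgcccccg
Chac1: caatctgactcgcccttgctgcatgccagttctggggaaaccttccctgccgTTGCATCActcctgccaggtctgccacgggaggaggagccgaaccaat
Slc1a4: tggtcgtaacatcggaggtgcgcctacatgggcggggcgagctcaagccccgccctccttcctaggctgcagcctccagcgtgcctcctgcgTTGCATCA
Got1: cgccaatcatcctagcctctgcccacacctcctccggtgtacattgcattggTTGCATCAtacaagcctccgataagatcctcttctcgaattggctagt
Asns: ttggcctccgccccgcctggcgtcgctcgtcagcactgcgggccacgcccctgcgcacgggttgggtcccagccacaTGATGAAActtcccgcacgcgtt

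The same 8 letters, TTGCATCA, stood in the first 4 stretches, and Asns carried TGATGAAA in the other orientation. Read along the gene, the element began 110 bases before the start site in Atf3, 102 in Got1, 23 in Asns and 4 in Slc1a4. Their Rbpj KO minus WT differences ran from -1.73 for Atf3 to 0.37 for Asns, a spread that follows from how these genes were picked. Trib3, with a match as well, differed by 0.06, and Ddit3 and Gpt2, without a match in the window, were more than 1.5-fold lower. The core letters bound by Rbpj, TGGGAA on either strand, were present in 9 of the 36 windows (25.0%), beside 25.6% of all windows, with Asns, Slc1a4 and Slc7a11 holding both elements. Matches to either set of letters were counted separately, whether or not they overlapped. The Atf3, Cbs, Gpt2 and Ddit3 windows held no TGGGAA. Bases outside the windows were not searched. A window without either set of letters therefore does not show that its gene lacks the element. Whether ATF4 or Rbpj acts on these genes was not tested.

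Of the 3 serine synthesis genes, 2 were lower in Rbpj KO, beside 60.2% of all genes, and the third had no direction. Phgdh, the entry enzyme of serine synthesis, had a level of 3.97 in Dll1 KO and 3.51 in Rbpj KO, against 4.06 in WT. The Rbpj KO array was the lowest, by -0.56 ± 0.14 from WT, and both probes of the gene gave a similar size (-0.59 and -0.53), although after normexp the difference was -0.33. Dll1 KO differed from WT by -0.10 ± 0.14. Psph, which releases serine in the last step, differed by -0.37 in Rbpj KO and -0.09 in Dll1 KO. Psat1, the aminotransferase between them, had a level of 1.68 in Dll1 KO and 1.47 in Rbpj KO, against 1.42 in WT. Its probes pointed opposite ways in Rbpj KO (-0.15 and 0.26), so its mean of 0.05 has no direction.

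Shmt1, the cytosolic enzyme that moves a carbon from serine to folate, had a level of -0.54 in Dll1 KO and -1.07 in Rbpj KO, against -0.50 in WT. Rbpj KO stood below the other arrays on both probes, by -0.58 ± 0.17 from WT (probes -0.71 and -0.45, and -0.31 for the gene after normexp). Mthfd2, the mitochondrial folate enzyme that dividing cells induce, had a level of 1.80 in Dll1 KO and 1.45 in Rbpj KO, against 2.01 in WT. The order was the same as for Ddit3, with a difference of -0.21 in Dll1 KO and -0.56 ± 0.20 in Rbpj KO. Shmt2, the mitochondrial counterpart of Shmt1, was 0.07 above WT in Dll1 KO and differed by -0.39 in Rbpj KO. The cytosolic folate enzyme Mthfd1 differed by -0.02 in Dll1 KO and -0.26 in Rbpj KO, and mitochondrial Mthfd1l by -0.18 in both, at a level of 1.70 in Dll1 KO and 1.70 in Rbpj KO, against 1.88 in WT.

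Cbs was low in both KO samples. This enzyme commits homocysteine to cysteine synthesis and takes up serine in doing so. Its level was -3.21 in Dll1 KO and -2.93 in Rbpj KO, against -1.0 in WT, and its single probe gave signals of 16.81 in Dll1 KO and 18.62 in Rbpj KO, against 89.07 in WT. The KO arrays lay within their scanner error of each other, 4.64-fold (Dll1 KO, -2.21 ± 0.34) and 3.81-fold (Rbpj KO, -1.93 ± 0.36) below WT. Because the KO signals were close to background, the size depended on the background correction, and after normexp it was -0.67 in Dll1 KO and -0.79 in Rbpj KO. Within the methionine cycle, Mat2a, which makes the methyl donor S-adenosylmethionine, had a level of 3.80 in Dll1 KO and 3.68 in Rbpj KO, against 3.73 in WT, with probes on both sides of WT in Rbpj KO (-0.22 and 0.13). Ahcy, which clears the product left after methyl transfer, had a level of -1.95 in Dll1 KO and -1.89 in Rbpj KO, against -2.08 in WT. It differed by 0.13 in Dll1 KO and 0.19 in Rbpj KO with probes that disagreed in sign, and by -0.40 in Rbpj KO with the spike-in scaling.

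Enzymes that make or exchange amino acids held the lowest group median in Rbpj KO, -0.44 over 7 genes, of which 6 were lower, beside 60.2% of all genes. After normexp that median was -0.27, beside -0.26 for serine synthesis. On probes well above background on both arrays, 5 of the 7 were lower. The same 7 genes had a median of -0.10 in Dll1 KO. Gpt2, the mitochondrial alanine aminotransferase, had a level of -2.28 in Dll1 KO and -2.46 in Rbpj KO, against -1.62 in WT. Like Cbs it was low in both KO samples, by -0.66 ± 0.26 in Dll1 KO and -0.84 ± 0.29 in Rbpj KO. Like Cbs it was dim, with signals of 32.10 in Dll1 KO, 25.67 in Rbpj KO and 57.79 in WT, and under normexp it no longer reached 1.5-fold (-0.32 in Dll1 KO and -0.35 in Rbpj KO).

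Aldh18a1, which starts proline synthesis from glutamate, had a level of -0.29 in Dll1 KO and -0.90 in Rbpj KO, against -0.40 in WT. It was low on the Rbpj KO array only, by -0.51 ± 0.22 from WT and -0.61 ± 0.22 from Dll1 KO, but after normexp by -0.25 and -0.36, under 1.5-fold. The aspartate aminotransferases Got1 (cytosol) and Got2 (mitochondria) differed by -0.10 and -0.11 in Dll1 KO, and by -0.39 and -0.44 in Rbpj KO. Oat, which links ornithine to proline and glutamate, was lower in both, by -0.36 in Dll1 KO and -0.47 in Rbpj KO. Bcat1, the cytosolic enzyme that removes the amino group of leucine, isoleucine and valine, differed by 0.28 in Dll1 KO and -0.27 in Rbpj KO. The negative Bcat1 value rests on 1 of its 3 probes, which differed by -1.16 ± 0.39 in Rbpj KO from WT. That probe was not well above background in Rbpj KO, so the size is uncertain. Without that probe the Rbpj KO difference was 0.18.

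Asns, which makes asparagine and is a standard readout of ATF4, ran the other way. Its level was 1.09 in Dll1 KO and 1.01 in Rbpj KO, against 0.64 in WT. WT was the low array, with differences of 0.45 ± 0.21 in Dll1 KO and 0.37 ± 0.21 in Rbpj KO, although the spike-in scaling turned the Rbpj KO value to -0.22 and left the Dll1 KO value at 0.28.

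**Figure D3:**
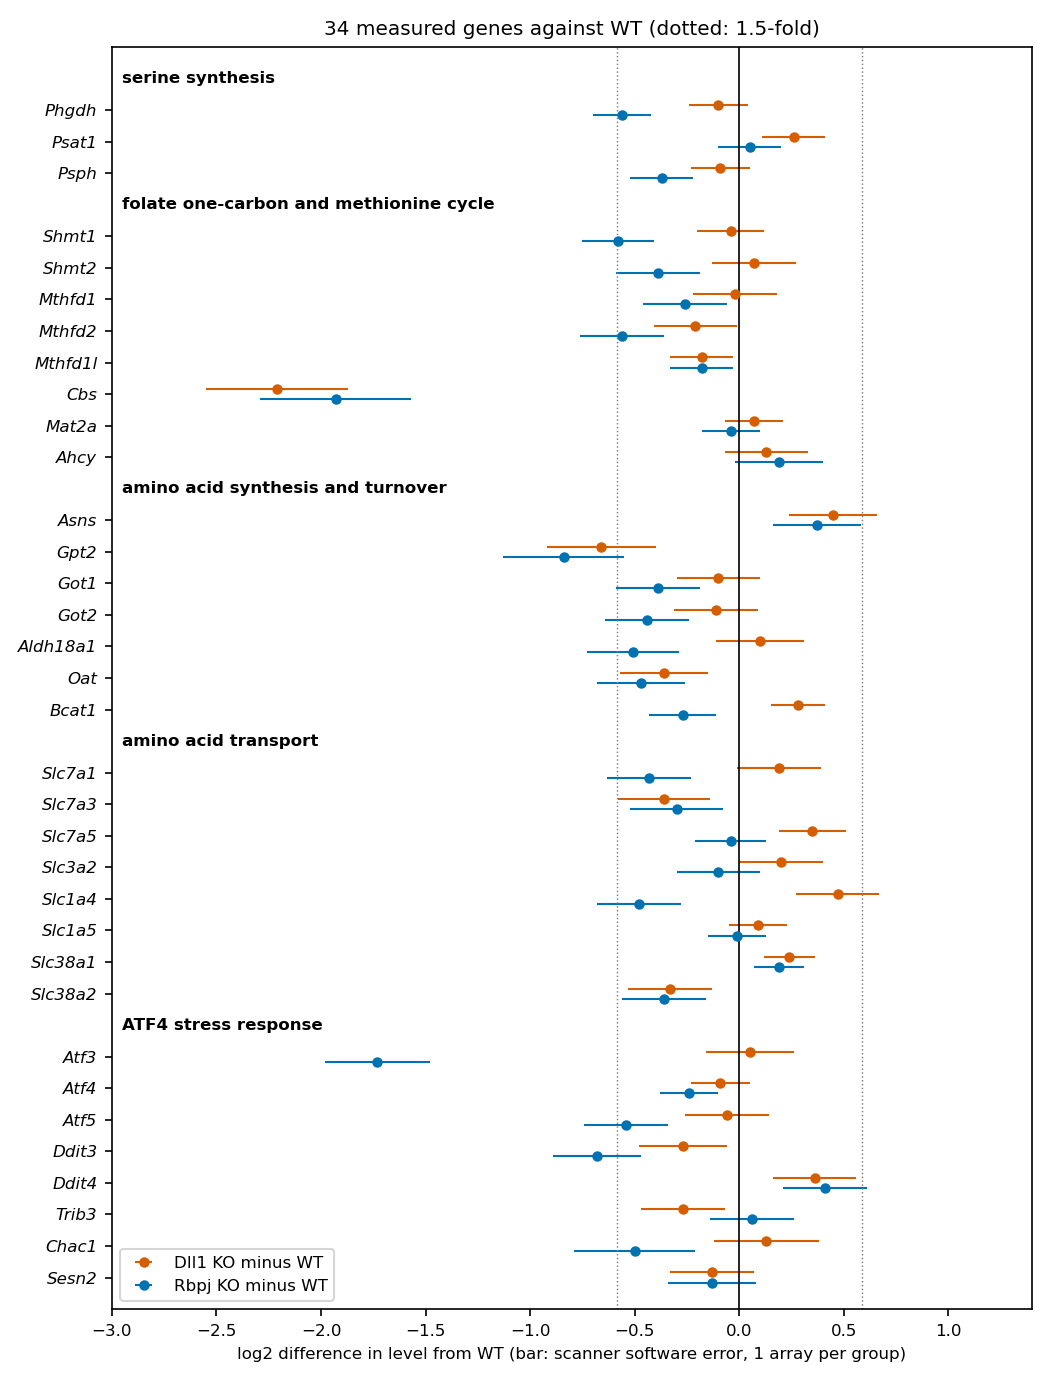
Log2 difference in level from WT for each of the 34 measured genes, in Dll1 KO and Rbpj KO, grouped by role (bars are the scanner software's error for 1 array per group, dotted lines mark 1.5-fold). Cbs lies far below WT in both, Atf3 in Rbpj KO only, and most other Rbpj KO points lie between 0 and -0.6.

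The 8 measured amino acid carriers had a median above WT in Dll1 KO and below it in Rbpj KO, but not gene by gene. In Dll1 KO, 6 of 8 were above WT, while 55.7% of all genes were below it. The carrier median there was 0.20, which became 0.03 with the spike-in scaling. In Rbpj KO, 7 of 8 were below WT, beside 60.2% of all genes. The carrier median there was -0.20, which was 0.01 on the probes of the bottom rows of the array alone. After normexp the Rbpj KO carriers were 4 above and 4 below WT, with a median of -0.08. Slc1a4, which carries serine, alanine and other small neutral amino acids, had signals of 1488 in Dll1 KO and 697.1 in Rbpj KO, against 1223 in WT. Its level was 3.26 in Dll1 KO and 2.30 in Rbpj KO, against 2.78 in WT, so that WT lay between the KO arrays at 0.47 ± 0.20 below Dll1 KO and 0.48 ± 0.20 above Rbpj KO. The distance from Rbpj KO to Dll1 KO was 1.94-fold (-0.96 ± 0.20), and -0.76 after normexp, where Rbpj KO minus WT was -0.31.

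Slc7a1, the main carrier of arginine and lysine, showed the same order. Its level was 4.69 in Dll1 KO and 4.06 in Rbpj KO, against 4.49 in WT. Rbpj KO differed from WT by -0.43 and from Dll1 KO by -0.62 ± 0.20, values that became -0.16 and -0.41 after normexp. Slc7a5 and Slc3a2 form the leucine carrier that T cells induce on activation. Slc7a5 had a level of -0.02 in Dll1 KO and -0.41 in Rbpj KO, against -0.37 in WT. Its difference was 0.35 in Dll1 KO and -0.04 in Rbpj KO, where its probes disagreed in sign (-0.23 and 0.16). Slc3a2 was 0.20 above WT in Dll1 KO and differed by -0.10 in Rbpj KO. For the glutamine carriers, Slc1a5 had a level of 3.73 in Dll1 KO and 3.62 in Rbpj KO, against 3.63 in WT, and its probes disagreed in sign in Rbpj KO. Slc38a1 had a level of 2.17 in Dll1 KO and 2.12 in Rbpj KO, against 1.93 in WT, above WT on all 3 probes in Dll1 KO but not in Rbpj KO (-0.04 to 0.49, and -0.39 for the gene with the spike-in scaling). Slc38a2, the member of that family induced by amino acid shortage, was below WT by nearly the same amount in both, -0.33 in Dll1 KO and -0.36 in Rbpj KO. Slc7a3, another carrier of cationic amino acids, differed by -0.36 in Dll1 KO and -0.30 in Rbpj KO.

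Neighbouring pathways were read from further lists, a few of which share a gene. Those closest to ATF4 had Rbpj KO medians from -0.30 to -0.11. Over all genes the median was -0.07, and 60.2% were lower than WT. Of 10 other ATF4-pathway genes, 9 were lower than WT and 1 was higher, with a median of -0.30. After normexp 8 were lower and 2 higher, with a median of -0.13. Past 1.5-fold were Cebpb (-0.87), a C/EBP partner of ATF4, and Wars (-0.86), the tryptophanyl-tRNA synthetase. The other tRNA synthetases of that list, Aars, Cars, Gars, Nars and Sars, differed by -0.25 to -0.34. In Dll1 KO the median of the list was 0.06. The kinases and phosphatase subunits acting on eIF2alpha, with eIF2B, had a Rbpj KO median of -0.18 (-0.13 after normexp) with 10 of 12 lower. Past 1.5-fold there were 0, beside 6.91% of all genes lower and 4.86% higher by that size. The unfolded protein response of the endoplasmic reticulum, which also feeds into ATF4, had a median of -0.11, near that of all genes, with 12 of 17 lower. After normexp its median was -0.02, with 8 higher and 9 lower. Ern1, its sensor IRE1, was at 0.62 (0.04 with the spike-in scaling) and the chaperone partner Sdf2l1 at -0.63.

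Purine and pyrimidine synthesis, which consumes the carbon units of folate, was lower in Rbpj KO for 16 of 17 genes, beside 60.2% of all genes. Its median was -0.25 in Rbpj KO against 0.00 in Dll1 KO. Prps1, which makes the ribose donor, had a level of 4.27 in Dll1 KO and 3.61 in Rbpj KO, against 4.31 in WT. Gart, a purine enzyme that uses formyl-folate, differed by -0.68 in Rbpj KO. After normexp Prps1 differed by -0.40 and Gart by -0.41. Gart and the next folate-using enzyme, Atic, are counted both here and among the folate genes. The remaining folate and thymidylate genes had a median of -0.08 in Rbpj KO, near that of all genes, with Gldc, the glycine-cleaving decarboxylase, above WT in both KO samples (0.83 in Dll1 KO and 0.89 in Rbpj KO). Its probe was dim, and these values were 0.24 and 0.26 after normexp, with 0.30 in Rbpj KO under the spike-in scaling. Other genes of methionine and polyamine metabolism also had a median near that of all genes, -0.07 in Rbpj KO. Among them Bhmt, which remethylates homocysteine, was 1.08 above WT in Dll1 KO, though only 0.13 after normexp. For glutamine, glutamate and branched-chain amino acids the Rbpj KO median, leaving out Psph, was -0.16. Of these, 13 of 17 were lower, beside 60.2% of all genes, with the proline-degrading enzyme Prodh at -0.75.

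Lower levels were not general to amino acid metabolism. In Rbpj KO, 60.2% of all genes were below WT, but 8 of 11 genes of glutathione synthesis and 11 of 18 other amino acid carriers were above it. Their medians were 0.15 and 0.07, but -0.01 and -0.09 with array median scaling and -0.43 and -0.52 with the spike-in scaling. Past 1.5-fold, the heme-degrading enzyme Hmox1 (0.60) and the carrier Slc36a1 (0.59) each rested on a probe that was dim in WT, and without it they differed by 0.24 and 0.10. The carrier Slc43a1 stood 1.18 above WT in Rbpj KO (0.44 after normexp), at a level of -2.42 in Dll1 KO and -1.35 in Rbpj KO, against -2.53 in WT. The amino acid sensing genes of mTORC1 had a median of -0.05 in Rbpj KO and -0.08 in Dll1 KO. In Rbpj KO 1 of 21 was past 1.5-fold, beside 6.91% of all genes lower and 4.86% higher by that size. It was the mTORC1 inhibitor Tsc2, at -1.04 (-0.34 after normexp).

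**Figure D4:**
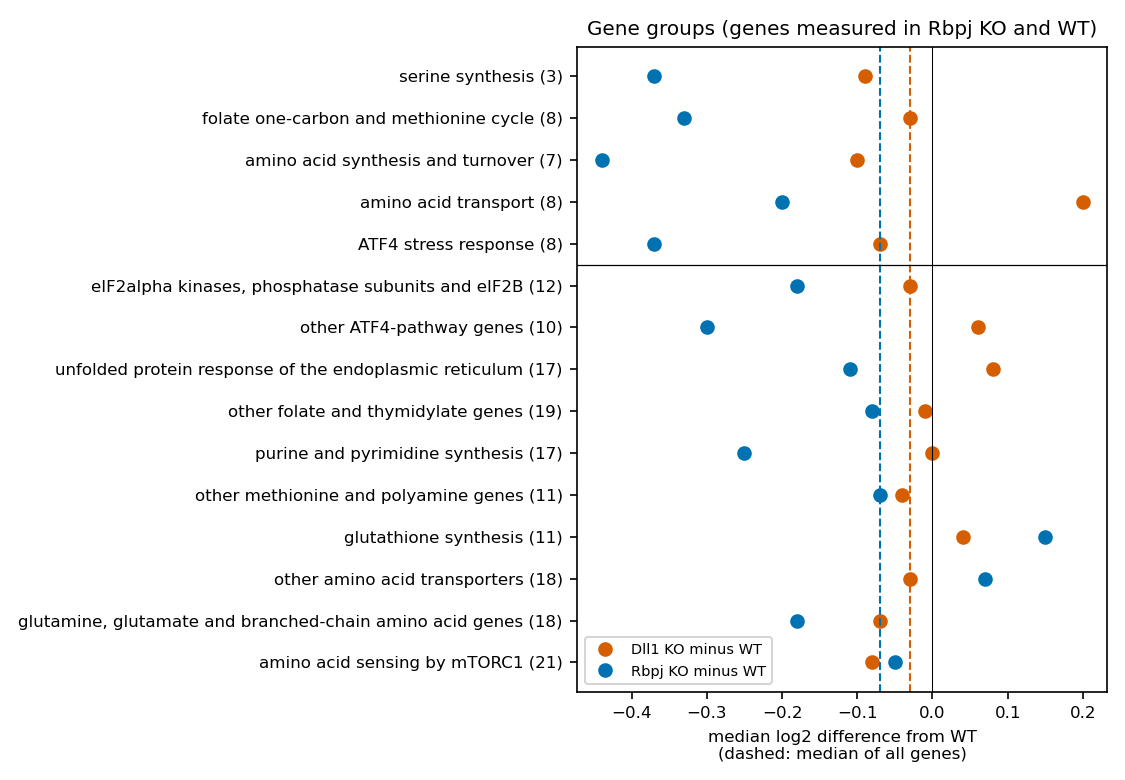
Median log2 difference from WT in Dll1 KO and Rbpj KO for the 5 role groups of the 34 genes (above the line) and for 10 neighbouring gene lists (below it), with the number of genes measured in brackets and the medians of all genes as dashed lines (1 array per group). Under the reported processing, enzymes of amino acid synthesis have the lowest Rbpj KO median (-0.44), and glutathione synthesis the highest (0.15).

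Several measured facts bear on how these values can be read. The probe for Dll1 stayed near background on all 3 arrays, so it checks nothing, and the Rbpj probes were lower in Rbpj KO than in WT by -0.35 and -0.66 and higher in Dll1 KO by 0.33 and 0.24. The position of the probes relative to the deleted sequence is not stated in the labels. Summed linear levels of 8 CD4 T cell markers, all well above background, were 815.2 in Dll1 KO and 896.1 in Rbpj KO, against 831.9 in WT. B cell markers summed to 28.12 in Dll1 KO and 21.6 in Rbpj KO, against 29.1 in WT, with 7, 6 and 5 of 7 well above background and Cd79a and Pax5 dim in WT. The natural killer and cytotoxic list summed to 9.647 in Dll1 KO and 4.974 in Rbpj KO, against 7.924 in WT, with 5, 5 and 4 of 7 above background. Its defining Ncr1 was dim on all arrays, as was Klrk1, and Klrb1c was dim in WT. The difference between these sums lay in 1 gene, Gzma (-3.07 in Rbpj KO). Without Gzma the sums were 4.286 in Dll1 KO and 4.498 in Rbpj KO, against 3.933 in WT. CD8 markers (2 of 2 above background) summed to 1.208 in Dll1 KO and 0.9241 in Rbpj KO, against 1.228 in WT. Macrophage markers summed to 5.572 in Dll1 KO and 6.588 in Rbpj KO, against 5.9 in WT, with 3, 2 and 2 of 7 above background. Of the 7, 6 had a probe. Adgre1, Cd14, Cd68 and Fcgr1 gave no signal well above background on any array, and Lyz2 gave one in Dll1 KO only. Of 6 dendritic cell markers, 1 (Siglech) was above background, and Clec9a, Flt3, Itgax, Xcr1 and Zbtb46 were not on any array. The list sum, 597.0 in Dll1 KO and 612.4 in Rbpj KO, against 538.7 in WT, is thus the value of 1 Siglech probe. Because levels cannot be compared between genes, its size beside the other sums gives no share of dendritic cells. Fewer cells of a type and less RNA per cell cannot be told apart in such bulk samples, and the part of other cell types in the differences was not tested.

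The scaling sets where 0 lies. With the E1A spike-in scaling the median of all genes moved to -0.20 in Dll1 KO and -0.66 in Rbpj KO, and that of the 34 genes to -0.20 and -0.95. With that shift, 25 of the 34 genes were lower than WT in Dll1 KO, beside 82.8% of all genes, and 34 of 34 in Rbpj KO, beside 95.1%. The distance between the medians of the 34 genes and of all genes in Rbpj KO was -0.29, which no scaling by 1 constant per array can alter. It was -0.20 after normexp and -0.12 on the probes of the bottom rows of the array, against -0.32 on the top rows, with the rows split at the middle. Among genes above the median level it was -0.15, from medians of -0.26 over 21 of the 34 genes and -0.12 over all such genes. Of the 12 genes with at least 2 probes well above background on all arrays, 6 had all their probes on the same side of WT in Rbpj KO and 6 did not, and 10 did in Dll1 KO.

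**Figure D5:**
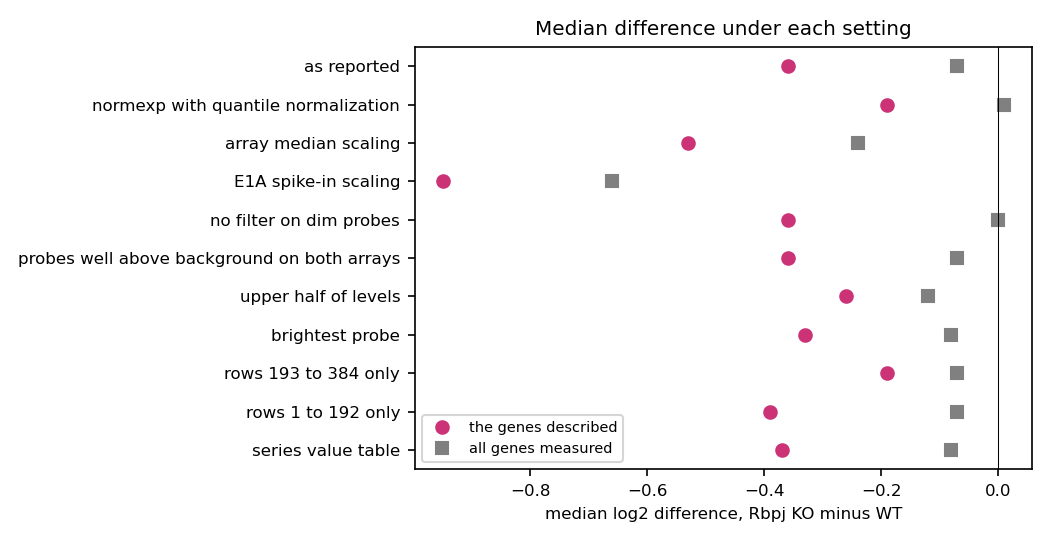
Median log2 difference of Rbpj KO from WT under the reported processing and each of 10 alternatives, for the genes described and for all genes measured (1 array per group). The median of the genes described lies below that of all genes under every alternative shown (by construction at the same distance for the scalings), at -0.36 against -0.07 as reported and -0.19 against 0.01 after normexp.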

How the data were processed

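Each of the 3 samples was labelled with Cy3 and hybridised to 1 Agilent array. Signals were extracted with Agilent Feature Extraction 10.7, per the submitters' processing notes (10.7.1.1 per the file headers). The intensity values used were the deposited processed signals with their errors, which per the file headers are background-subtracted, and median and background signals for the normexp alternative, because no mean signal is held in the files. The deposited flags marked outlier spots (139 to 163 per array, left out), saturation (0 spots) and spots well above background (46.6% to 50.1% of probes per array). A deposited log2 value table equalled the log2 processed signal shifted by a constant per array, -7.27 for Dll1 KO, -7.14 for Rbpj KO and -7.47 for WT (within 0.01), and served as an alternative.

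Spots of a probe were averaged, control spots left out, and each array's 75th percentile subtracted. Of 55678 probes, 27507 were named through RefSeq accessions (GRCm38.p6 table), giving 20886 genes, and 28171 were not named. A gene's level averages those of its probes that were well above background on 1 array or more. It counts as measured in a comparison when a probe is so on both arrays. With 1 array per group there was no test, and the number of arrays limits the precision. The members and lists were chosen with earlier results of these data known. Genes were named in the text when they were members, or belonged to a related list and differed from WT by at least 1.5-fold (at most 3 per list and comparison). The tRNA synthetases under that size, and the cell type markers named, were chosen after their values were seen. Median repeat-spot SD was 0.06 to 0.07 log2. Python 3.11.15, R 4.3.3 and limma 3.58.1 (normexp, offset 50) were used, and the steps were tested on simulated data. There were 10 alternatives, listed in the closing section.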

Additional observations from a re-analysis of the deposited data

How the results depend on the processing

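The alternatives were normexp with quantile normalization, array median scaling, E1A spike-in scaling, no filter on dim probes, probes well above background on both arrays, genes above the median level, the brightest probe per gene, the top or bottom rows of the array alone and the deposited value table. Neither Rbpj KO median over the 34 genes changed sign under any of them, while the Dll1 KO median lay between -0.20 and 0.02. Shares of all genes stand in brackets. For Dll1 KO against WT, the number of genes at least 1.5-fold lower (2 as reported, 2.25%) was 1 after normexp (0.415%) and 1 on the bottom rows (1.63%). It was 1 on the top rows (2.78%) and 0 among genes above the median level (0.423%). The number higher (0, 1.95%) was 1 with the brightest probe (1.86%). For Rbpj KO against WT, the number lower (4, 6.91%) was 2 after normexp (2.36%), 2 on the bottom rows (6.30%), 0 among genes above the median level (4.80%), 14 with median scaling (12.4%) and 28 with spike-in scaling (60.5%), where the median (-0.36) was -0.95. For Rbpj KO against Dll1 KO, the number lower (5, 6.34%) was 2 after normexp (3.21%), 2 among genes above the median level (5.09%), 3 on the top rows (6.56%), 3 on the bottom rows (5.88%), 8 with median scaling (9.16%) and 20 with spike-in scaling (29.4%), where the median (-0.27) was -0.68. The scalings moved every gene by the same amount, and other causes of these differences were not tested. The 8 genes at least 1.5-fold apart in a comparison each had 1 probe, so for them only the scalings and normexp could alter a value. Of their 24 values, 12 moved by more than the scanner error after normexp. With the E1A spike-in scaling 15 did, and with array median scaling 0. Signal over background limits Cbs, Gpt2, Chac1 and Atf3 in Rbpj KO. No paired analysis was possible because each genotype has 1 array and the labels carry no replicate numbers. For the same reason no array could be left out.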
